A study of Mus musculus with 6 samples.

Results

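The adherens junction genes described here are 10 rows of the deposited gene tables, chosen by name out of 55849: Cdh1, Cdh17, Ctnna1, Ctnnb1, Ctnnd1, Vcl, Afdn, Epcam, Nectin2 and Nectin3. All 10 had enough counts to be tested, among 16107 genes that did. They were measured by sequencing polyadenylated RNA of the descending colon in mice aged 12 weeks, with 3 libraries of C57BL/6 wild-type animals and 3 of Muc2-/- animals. Without Muc2, the main secreted mucin of the large bowel, mice have no proper mucus barrier and develop chronic colitis. Neither group was treated, the mutated allele and its genetic background are not described in the labels, and the number of animals behind each library is not given. The p-values therefore measure the spread between these libraries.

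Adherens junctions join neighbouring epithelial cells below the tight junction. In them, the outer parts of classical cadherins bind each other across the gap between cells. The inner tail of a cadherin binds p120-catenin and beta-catenin, beta-catenin binds alpha-catenin, and alpha-catenin holds actin filaments and, under tension, recruits vinculin. Nectins form a parallel set of contacts that are tied to actin through afadin. In the colon E-cadherin is the main classical cadherin, and beta-catenin has a separate role as the nuclear effector of Wnt signalling in crypt cells.

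Library totals ran from 16395432 to 20336459 counts. Muc2 itself ranged from 2480 to 6977 CPM (counts scaled to library size with TMM factors) among wild-type libraries and from 756.5 to 1021 CPM among Muc2-/- libraries, a log2 fold change of -2.15 (SE 0.47, edgeR adjusted p = 0.103, DESeq2 adjusted p = 6.8e-05). Which part of the gene was deleted is not described, so this level is no test of the genotype. Crypts are named in the titles and colon tissue in the protocols. A set of 12 smooth muscle markers together reached 3061 to 25440 CPM, so the libraries hold more than epithelium. The share of mitochondrially encoded counts was 3.49% to 8.98% in wild-type and 1.04% to 3.50% in Muc2-/-. Longer genes were relatively lower in some libraries: the rank correlation across genes of length with a library's departure from the average of all 6 ran from 0.0369 to 0.154 in wild-type and from -0.245, in Muc2-/- 2, to 0.0248 in Muc2-/-.

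Most of these transcripts were more abundant in the Muc2-/- libraries, with Cdh1 at the top of the range and Vcl as the exception. Of the 10 genes, 9 had a positive log2 fold change, with a median of 0.51 against -0.01 over all 16107 tested genes, of which 49.1% were positive. None passed an adjusted p of 0.05 in edgeR's quasi-likelihood test, where 0.106% of all tested genes were called higher, 0.0186% lower and 0.124% in either direction. At an unadjusted p under 0.05, edgeR gave 3 of the 10 as higher (Cdh1, Cdh17 and Ctnnd1) and 0 as lower, against 8.23% and 12.7% of all tested genes. DESeq2 called 1 of the 10 higher, Cdh1, against 4.09% of all genes, and 0 lower, against 7.41%. In CPM the groups did not overlap for 7 of the 10, all higher in Muc2-/-, against 13.3% higher and 15.2% lower of all tested genes. In FPKM, the authors' values per gene length, scaled between libraries by factors described under processing, 6 of the 10 were higher without overlap. Of all tested genes, 13.6% were higher and 15.1% lower without overlap.

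Apart from DESeq2, the other fits also called 0 of the 10, whether on all libraries or with some left out. limma called 0.0112% of all genes higher on log2(FPKM + 1), 0.0149% on log2(FPKM + 0.1) and 0.292% on log2(FPKM + 1) with at least 1 FPKM in 3 libraries. edgeR without wild-type 3 called 1.62% higher and 5.68% lower. With no filter on low counts it called 384 higher and 815 lower of 26830 genes. With the replicate number as a block it called 225 higher and 448 lower of 16107 genes. Wild-type 1 and Muc2-/- 2 stood farthest apart on the first principal component of all tested genes, and without both (an alternative added with the data in view) 9 of the 10 remained positive with a median of 0.28.

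Per length, the order of the levels in wild-type was led by Epcam and Cdh1. Mean FPKM in wild-type was 882.0 for Epcam, 191.2 for Cdh1, 130.7 for Cdh17, 115.3 for Ctnnb1, 72.34 for Ctnna1, 34.84 for Nectin2, 12.66 for Ctnnd1, 12.61 for Afdn, 7.93 for Vcl and 6.19 for Nectin3. Neighbours whose wild-type libraries overlapped were Cdh1 and Cdh17, Cdh17 and Ctnnb1, Ctnnd1 and Afdn, Afdn and Vcl, and Vcl and Nectin3. In Muc2-/- the order was the same down to Afdn, Vcl lay last at 3.87 FPKM below Nectin3 at 7.70 FPKM, and no neighbours overlapped.

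**Figure D1:**
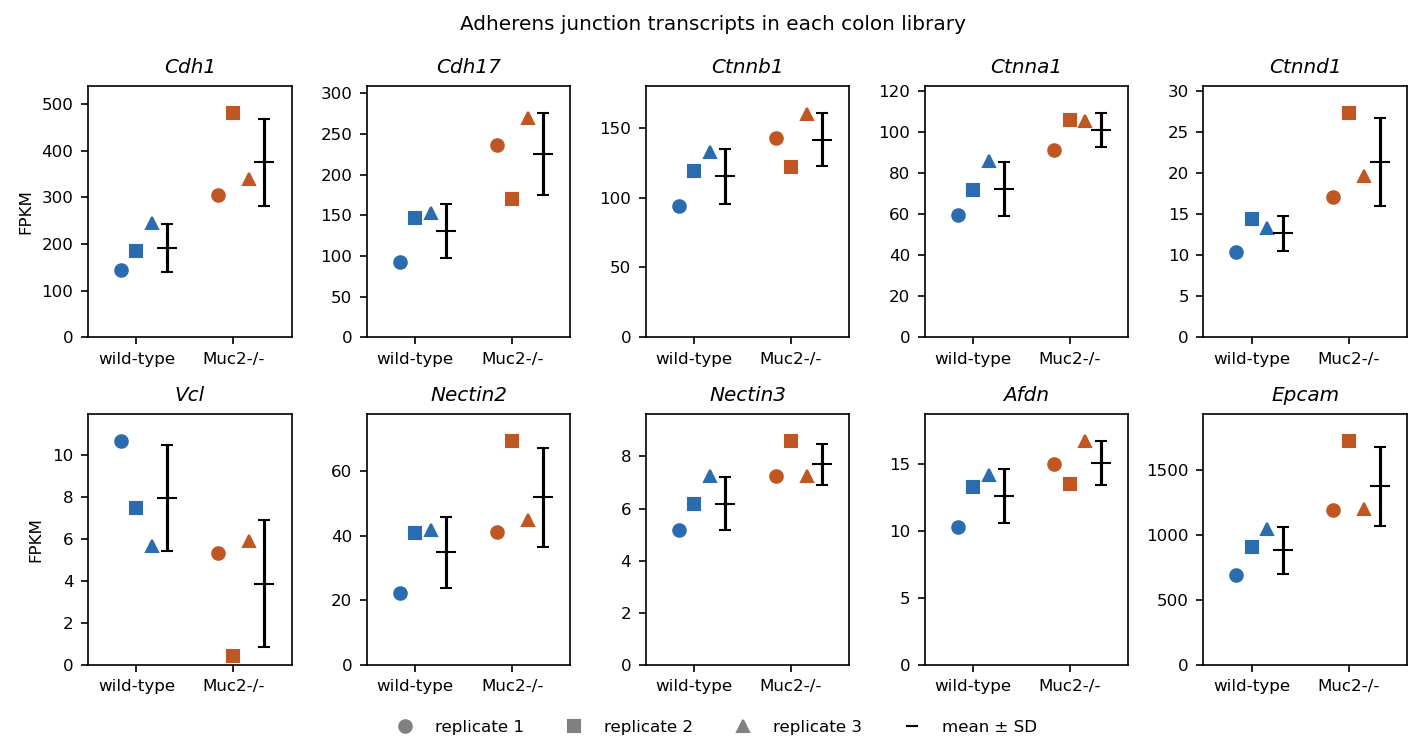
FPKM (y axis, from 0) of the 10 genes in each library, with wild-type in blue and Muc2-/- in orange, symbols for the replicate number and black bars for mean ± SD (n = 3). Cdh1 lies between 143.8 and 244.5 FPKM in wild-type and between 305.3 and 480.9 FPKM in Muc2-/-, while Vcl overlaps and is near 0 in Muc2-/- 2.

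Cdh1 encodes E-cadherin, the classical cadherin of epithelia (ENSMUSG00000000303, chromosome 8 from 107329983 to 107396878, plus strand, in the coordinates of the count table). It stood at 143.8, 185.4 and 244.5 FPKM in wild-type 1, 2 and 3 and at 305.3, 480.9 and 339.6 FPKM in Muc2-/- 1, 2 and 3. Every Muc2-/- library was above every wild-type library, and Muc2-/- 2 was the highest. In CPM the mean went from 880.1 ± 211.4 to 1705 ± 400.0 (SD, n = 3 each), 1.94-fold, with a log2 fold change of 0.95 (SE 0.31). edgeR's adjusted p was 0.142 and that of DESeq2 was 0.0156 (log2 fold change 0.97), so the call rests on the tool. With wild-type 1 and Muc2-/- 2 left out together, the log2 fold change was 0.59.

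Cdh17 encodes LI-cadherin, an intestinal cadherin with a short inner tail that does not bind catenins (ENSMUSG00000028217, chromosome 4 from 11758147 to 11817895, plus strand). It stood at 92.4, 146.2 and 153.4 FPKM in wild-type and at 236.9, 170.0 and 269.3 FPKM in Muc2-/-. The groups did not overlap, but Muc2-/- 2 was the lowest of its group, the reverse of its place for Cdh1. The log2 fold change was 0.77 (SE 0.30, 1.71-fold in CPM), with an adjusted p of 0.197 in edgeR and 0.0629 in DESeq2.

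The 3 catenins that sit on the E-cadherin tail differed in size of change. Ctnnd1, which encodes p120-catenin and keeps cadherins at the membrane, lies on chromosome 2 from 84430415 to 84481109 on the minus strand. It stood at 10.31, 14.42 and 13.24 FPKM in wild-type and at 17.05, 27.28 and 19.59 FPKM in Muc2-/-, again without overlap and with Muc2-/- 2 highest. Its log2 fold change was 0.73 (SE 0.23, edgeR adjusted p = 0.141, DESeq2 adjusted p = 0.0514). Ctnna1, alpha-catenin, stood at 59.42, 71.71 and 85.88 FPKM in wild-type and at 91.4, 106.2 and 105.6 FPKM in Muc2-/-. Those groups did not overlap either, with a log2 fold change of 0.46 (SE 0.22, edgeR adjusted p = 0.28).

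Ctnnb1, beta-catenin, lies on chromosome 9 from 120758282 to 120789573 on the plus strand. It stood at 93.68, 119.1 and 133.0 FPKM in wild-type and at 143.0, 121.8 and 160.0 FPKM in Muc2-/-, and the groups overlapped because Muc2-/- 2 fell among the wild-type values. The log2 fold change was 0.28 (SE 0.24, edgeR adjusted p = 0.539), and 0.16 without wild-type 1.

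Set against E-cadherin in the same library, alpha- and beta-catenin transcripts were lower in Muc2-/-, as were most genes. This ratio was chosen after the values of the single genes were seen. Ctnnb1 amounted to 65.1%, 64.2% and 54.4% of the Cdh1 FPKM in wild-type 1, 2 and 3, and to 46.9%, 25.3% and 47.1% in Muc2-/- 1, 2 and 3. Ctnna1 amounted to 41.3%, 38.7% and 35.1% in wild-type and to 29.9%, 22.1% and 31.1% in Muc2-/-. Neither pair of groups overlapped. Relative to Cdh1, 65% of all 16107 tested genes were lower without overlap and 0.95% higher, with a median log2 difference of -0.97, so a lower ratio does not set the catenins apart. The exact two-sided permutation test over libraries gave p = 0.1 for each, the smallest 3 against 3 libraries allow (0.156 after Benjamini-Hochberg adjustment over 14 ratios). The log2 difference was -0.68 for Ctnnb1 and -0.48 for Ctnna1, and without Muc2-/- 2 it was -0.38 and -0.33. Ctnnd1 amounted to 5.41% to 7.78% of the Cdh1 FPKM in wild-type and to 5.59% to 5.77% in Muc2-/-, with overlap (log2 difference -0.24, exact permutation test, two-sided p = 0.4, adjusted p = 0.509). That difference was -0.13 without wild-type 2 and -0.40 without wild-type 3.

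Nectins are immunoglobulin-like adhesion receptors, and afadin, the product of Afdn, is their link to actin. Nectin2 (chromosome 7 from 19450569 to 19484408, minus strand) stood at 22.16, 40.7 and 41.67 FPKM in wild-type and at 41.25, 69.34 and 44.94 FPKM in Muc2-/-. Its groups touched in FPKM and were just apart in CPM (at most 144.5 in wild-type, at least 145.1 in Muc2-/-), and the low wild-type 1 and high Muc2-/- 2 carried most of the difference in means. The log2 fold change was 0.55 (SE 0.30, edgeR adjusted p = 0.333). It was 0.32 without either of these libraries and 0.066 without both.

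Nectin3 (chromosome 16 from 46208069 to 46318888, minus strand) stood at 5.17, 6.17 and 7.23 FPKM in wild-type and at 7.25, 8.60 and 7.23 FPKM in Muc2-/-, where wild-type 3 and Muc2-/- 3 were almost equal. The log2 fold change was 0.30 (SE 0.18, edgeR adjusted p = 0.394), and 0.19 without wild-type 1. Afdn (chromosome 17 from 13980801 to 14126412, plus strand) stood at 10.33, 13.28 and 14.22 FPKM in wild-type and at 14.98, 13.5 and 16.76 FPKM in Muc2-/-. Its groups overlapped through Muc2-/- 2, and its log2 fold change, 0.24, was the smallest in size of the 10 (SE 0.20, edgeR adjusted p = 0.518), and 0.12 without wild-type 1.

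Epcam encodes an epithelial cell adhesion molecule that binds claudin-7 and loosens cadherin contacts (ENSMUSG00000045394, chromosome 17 from 87943407 to 87958557, plus strand). It stood at 689.4, 909.1 and 1048 FPKM in wild-type and at 1195, 1728 and 1205 FPKM in Muc2-/-, without overlap. The log2 fold change was 0.62 (SE 0.31, 1.54-fold in CPM, edgeR adjusted p = 0.292, DESeq2 adjusted p = 0.104). Cldn7, which encodes claudin-7, went from a mean of 905.0 CPM to 1692 CPM (log2 fold change 0.90, SE 0.36, edgeR adjusted p = 0.212).

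The E-box CACCTG is the hexamer bound by the Snail and Zeb repressors of epithelial genes, and it is shown in capitals here because the levels of those repressors follow. The Epcam promoter window, from 250 bases before to 50 bases after the start (RefSeq, GRCm38.p6, chr17:87635729-87636028, plus strand), holds it at 187 bases before the start and its reverse complement CAGGTG at 19 bases before it.
Epcam: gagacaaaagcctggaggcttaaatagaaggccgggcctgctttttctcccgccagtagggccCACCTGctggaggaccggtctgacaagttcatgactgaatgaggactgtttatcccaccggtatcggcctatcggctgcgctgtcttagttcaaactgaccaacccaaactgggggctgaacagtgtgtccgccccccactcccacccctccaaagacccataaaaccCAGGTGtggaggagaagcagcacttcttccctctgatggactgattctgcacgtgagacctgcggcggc
Of the 10 genes, 7 had promoter windows in the RefSeq table and Cdh1, Cdh17 and Ctnna1 did not. Epcam and Nectin2 were the only ones of the 7 with this hexamer, which was found on either strand in 20.2% of 32851 promoter windows.

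Vcl encodes vinculin, which ties alpha-catenin and integrin contacts to actin and is also abundant in smooth muscle (ENSMUSG00000021823, chromosome 14 from 20979466 to 21083744, plus strand). It stood at 10.66, 7.48 and 5.66 FPKM in wild-type and at 5.32, 0.411 and 5.88 FPKM in Muc2-/-. The groups overlapped between wild-type 3 and Muc2-/- 3, and Muc2-/- 2 was far below all others, with 50 counts against 737 to 1625. The log2 fold change was -1.05 (SE 0.76, edgeR adjusted p = 0.466), and without Muc2-/- 2 it was -0.49. Ap3m1, which overlaps Vcl on the opposite strand, was also lowest in Muc2-/- 2, with 535 counts against 1248 to 1514 elsewhere. The sources used here do not say whether strand was used in counting, so how reads were assigned where this pair overlaps is not known.

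The Vcl promoter window is shown because Vcl alone of the 10 had a negative log2 fold change. It holds a CArG box (CC, then 6 letters that are each A or T, then GG), the element recognised by serum response factor, the regulator of many muscle and actin genes. The match, CCTTATAAGG, begins 227 bases before the start (RefSeq, GRCm38.p6, chr14:20929148-20929447, plus strand), reads the same on both strands and is in capitals.
Vcl: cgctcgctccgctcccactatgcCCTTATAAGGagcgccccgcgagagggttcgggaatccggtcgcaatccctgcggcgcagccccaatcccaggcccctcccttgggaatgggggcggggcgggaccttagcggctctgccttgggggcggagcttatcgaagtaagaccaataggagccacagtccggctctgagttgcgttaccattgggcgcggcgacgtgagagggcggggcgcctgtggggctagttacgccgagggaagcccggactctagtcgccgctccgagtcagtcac
A CArG box of this form occurs in 535 of 32851 promoter windows (1.63%) and in none of those of the other 6 genes with a window. A match describes these letters and not a bound site.

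**Figure D2:**
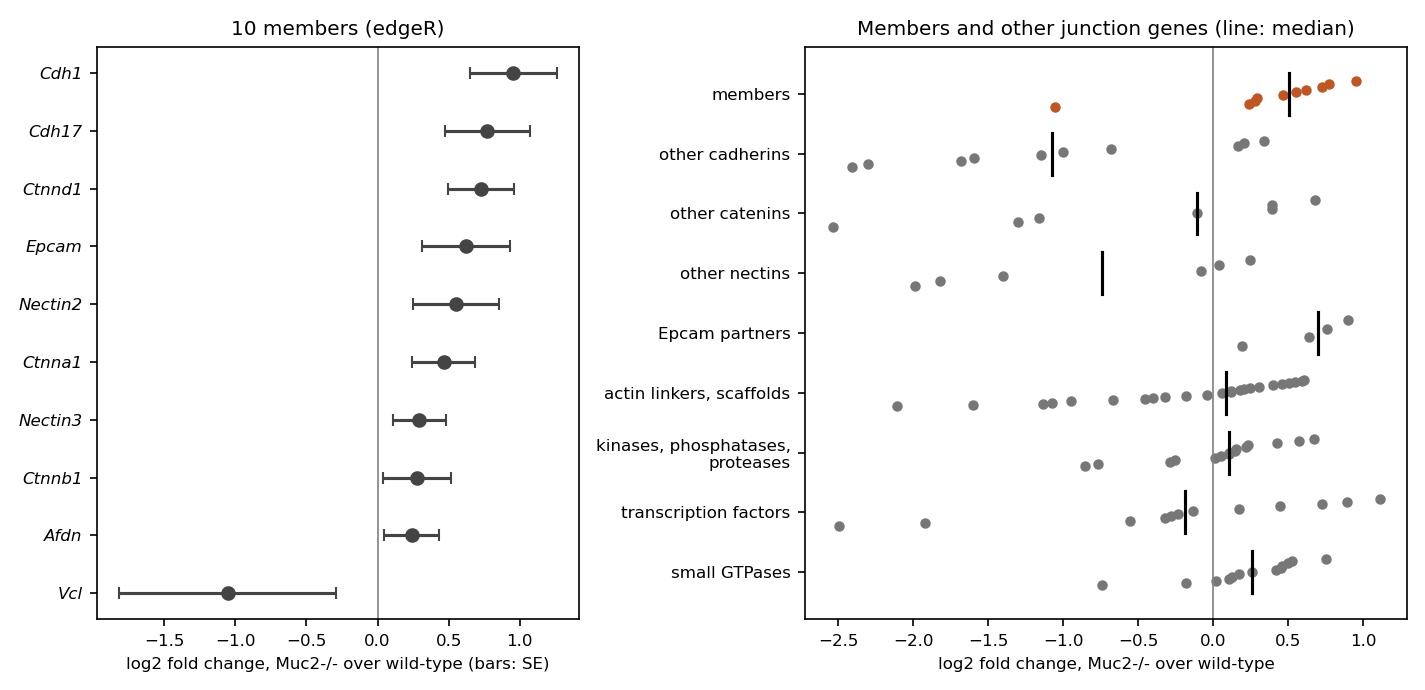
Left, edgeR log2 fold change of Muc2-/- over wild-type (x axis) for the 10 genes, with bars for the SE. Right, the same measure for the 10 genes (orange) and for 8 lists of other junction genes (grey, 1 point a gene), with a line at each median: -1.07 for the other cadherins and 0.70 for the Epcam partners.

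The 10 genes did not move through the libraries as a block. By log2 CPM, wild-type 1 was the lowest library for 9 of them, all but Vcl. Muc2-/- 2 split them: it was above both other Muc2-/- libraries for 5 (Cdh1, Epcam, Ctnnd1, Nectin2 and Nectin3) and below both for 4 (Cdh17, Ctnnb1, Afdn and Vcl). Relative to the mean of Muc2-/- 1 and 3, Muc2-/- 2 differed on the log2 scale by 0.66 for Nectin2, 0.55 for Cdh1 and 0.50 for Epcam, and by -0.60 for Cdh17, -0.34 for Ctnnb1 and -3.75 for Vcl. The listed gene lengths of the higher genes run from 2195 to 12747 bases and those of the lower genes from 4474 to 10325 bases. In Muc2-/- 2 length and departure from the average of all libraries were correlated at -0.245 across all tested genes, and the part of length in this split was not tested.

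Across the 6 libraries, Ctnnb1 and Afdn had the most alike profiles (Pearson r = 0.994 of log2 CPM), followed by Cdh1 and Epcam (0.985), whereas Cdh1 and Ctnnb1 had r = 0.586. With each group's mean removed, the values were 0.99, 0.972 and 0.128. These are descriptions over 6 libraries, and within each library the genes share its genotype, depth and tissue makeup.

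**Figure D3:**
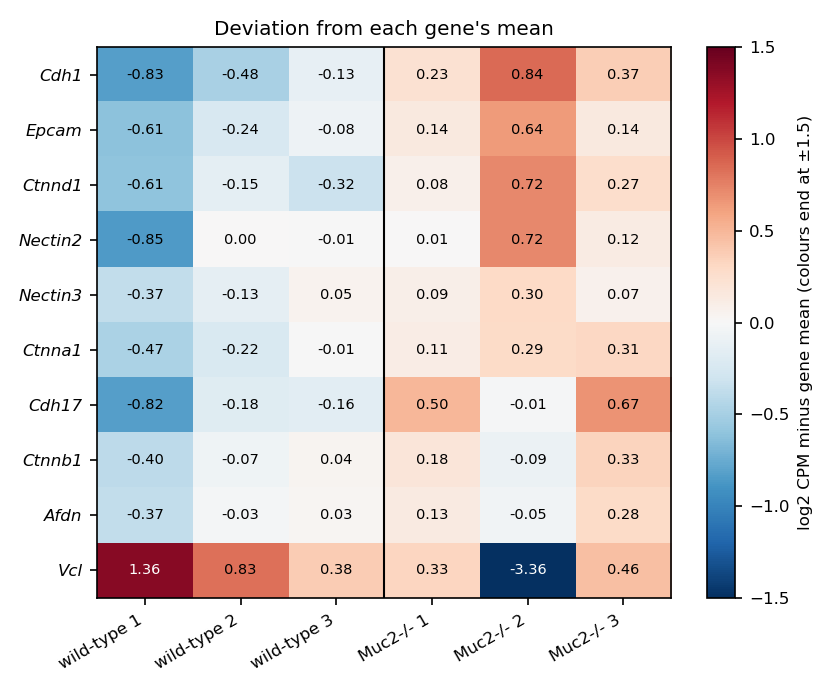
Log2 CPM of each gene minus its mean over the 6 libraries, with wild-type left of the line and Muc2-/- right. Colours end at ±1.5 and the printed values do not. Muc2-/- 2 is red for Cdh1 (0.84) and blue for Vcl (-3.36), and Cdh17 there is near its mean (-0.01).

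The genes with the profile most like that of Cdh1, among 11340 genes with at least 5 CPM on average, were Dera, Elf3, Dctn3, Crk and Plac8 (r from 0.995 to 0.999 over 6 libraries). Elf3, an epithelial transcription factor, stood at 350.1, 431.3 and 583.6 CPM in the wild-type libraries and at 790.6, 1322 and 835.4 CPM in Muc2-/-. For the mean of the standardised profiles of the 10 genes they were Calm3, Vasp, Rbm47, Crybg1 and Sowahb (r from 0.996 to 0.999). Vasp, an actin filament elongation factor, stood at 364.3, 456.7 and 479.2 CPM in the wild-type libraries and at 544.4, 564.6 and 606.2 CPM in Muc2-/-.

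Epithelial markers were mostly higher in Muc2-/-, like most of these genes, and smooth muscle markers were lower. In bulk tissue, fewer cells of a type and less RNA per cell cannot be told apart. The summed CPM of 12 epithelial markers reached 11670, 19300 and 22550 for wild-type 1, 2 and 3, against 28170, 40740 and 29720 for Muc2-/- 1, 2 and 3, the same order of libraries as Cdh1. Of the 12, 11 had a positive log2 fold change (median 0.77), and none was at 0 counts in any library. The 12 smooth muscle markers summed to 25440, 14910 and 7249 CPM in wild-type and to 5512, 5176 and 3061 CPM in Muc2-/-. None of these 12 had a positive log2 fold change (median -1.70).

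Fibroblast markers (8 genes, 685.5 to 1383 CPM in wild-type and 602.5 to 808.0 CPM in Muc2-/-) and neuron and glia markers (8 genes, 63.56 to 285.1 and 26.27 to 60.53 CPM) were also summed, and the groups overlapped for fibroblasts and not for neurons and glia. Leukocyte markers (9 genes) summed to 308.3 to 617.1 CPM in wild-type and to 1086 to 1283 CPM in Muc2-/-. That gap lay in Jchain, the joining chain of plasma cell antibodies (167.1 to 198.3 CPM and 744.3 to 1093 CPM). The other 8 summed to 118.7 to 449.9 CPM and 189.1 to 341.4 CPM, which overlapped, with wild-type 1 highest. Endothelial markers (7 genes) summed to 60.52 to 79.65 CPM in wild-type and to 44.95 to 56.03 CPM in Muc2-/-.

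**Figure D4:**
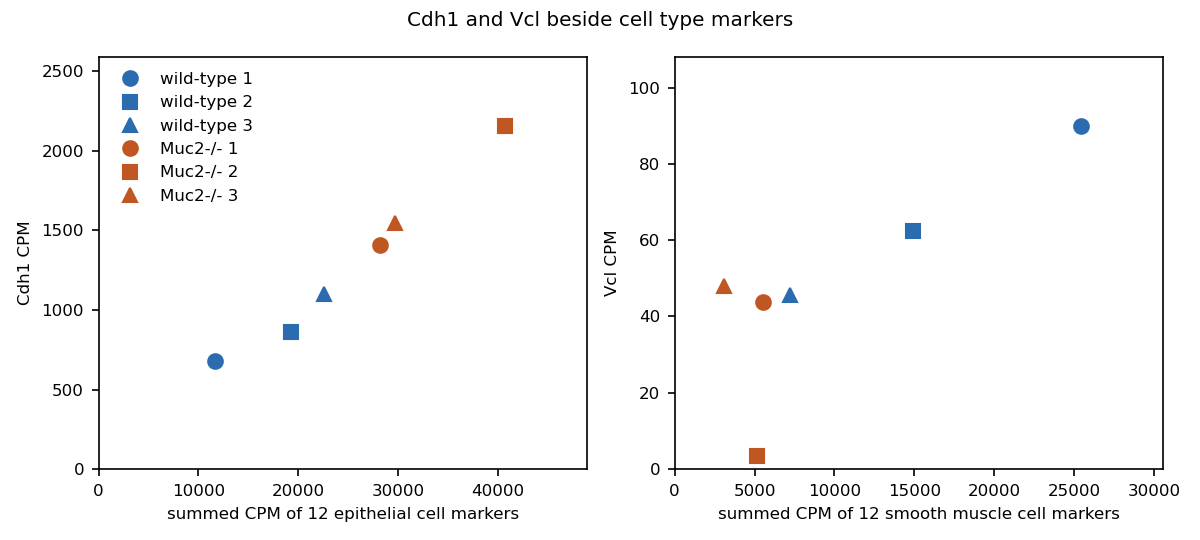
Left, Cdh1 CPM (y axis) against the summed CPM of 12 epithelial markers (x axis), and right, Vcl CPM against the summed CPM of 12 smooth muscle markers, 1 point a library. Cdh1 runs from 678.2 CPM in wild-type 1 to 2159 CPM in Muc2-/- 2 in the order of the epithelial sum, while Vcl in Muc2-/- 2 (3.30 CPM) lies far below Muc2-/- 1 (43.88 CPM) at a like smooth muscle sum.

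Relative to the epithelial marker sum, Cdh1 hardly differed between the groups, and most of the other members were lower in Muc2-/-, as were most genes: 59.6% of all 16107 tested genes were lower without overlap and 0.969% higher, with a median log2 difference of -0.93. Cdh1 amounted to 5.81%, 4.47% and 4.88% of that sum in wild-type and to 4.99%, 5.30% and 5.21% in Muc2-/- (log2 difference 0.04, exact permutation test, two-sided p = 0.7, adjusted p = 0.817), and leaving out single libraries gave -0.044 to 0.15. Beta-catenin went the other way from its own level. Ctnnb1 amounted to 4.30%, 3.26% and 3.01% in wild-type and to 2.65%, 1.52% and 2.79% in Muc2-/-, without overlap (log2 difference -0.63).

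For Epcam the ratio was 10.03% to 13.4% in wild-type and 8.88% to 9.37% in Muc2-/- (log2 difference -0.30), and for Afdn 0.641% to 0.943% and 0.336% to 0.581% (-0.67). Ctnna1 (-0.44), Nectin2 (-0.35), Nectin3 (-0.61) and Vcl (-2.65) also had lower ratios in Muc2-/- without overlap, which makes 7 of the 10 against 59.6% of all tested genes, a share near the background. Without Muc2-/- 2 the log2 difference was -0.36 for Ctnnb1, -0.42 for Afdn and -1.22 for Vcl, and without wild-type 1 it was -0.17 for Epcam and -0.28 for Ctnna1. Each of the 7 had p = 0.1 in the exact two-sided permutation test, the smallest possible, and 0.156 after adjustment over 14 ratios. Cdh17 and Ctnnd1 overlapped (log2 differences -0.14 and -0.20, exact p = 1.0 and 0.4). Leaving out single libraries gave -0.35 to 0.22 for Cdh17, the highest without Muc2-/- 2, and for Ctnnd1 -0.047 without wild-type 1 and -0.38 without wild-type 3.

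The sum is dominated by Krt8, Krt19 and Lgals4, which made up 65.4% to 79.3% of it. With the geometric mean of the 12 markers in its place, 4 of the 10 did not overlap, all lower: Ctnnb1, Vcl, Afdn and Nectin3. Of all tested genes 55.3% were then lower without overlap and 1.29% higher. Vcl relative to the smooth muscle sum was 0.354%, 0.418% and 0.630% in the wild-type libraries, against 0.796%, 0.0638% and 1.57% in those of Muc2-/-. The log2 difference of this ratio was -0.07 (exact permutation test, two-sided p = 1.0), with 1.303 without Muc2-/- 2 and 0.16 without wild-type 3. The part of tissue makeup in the differences of level was not tested beyond these ratios.

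**Figure D5:**
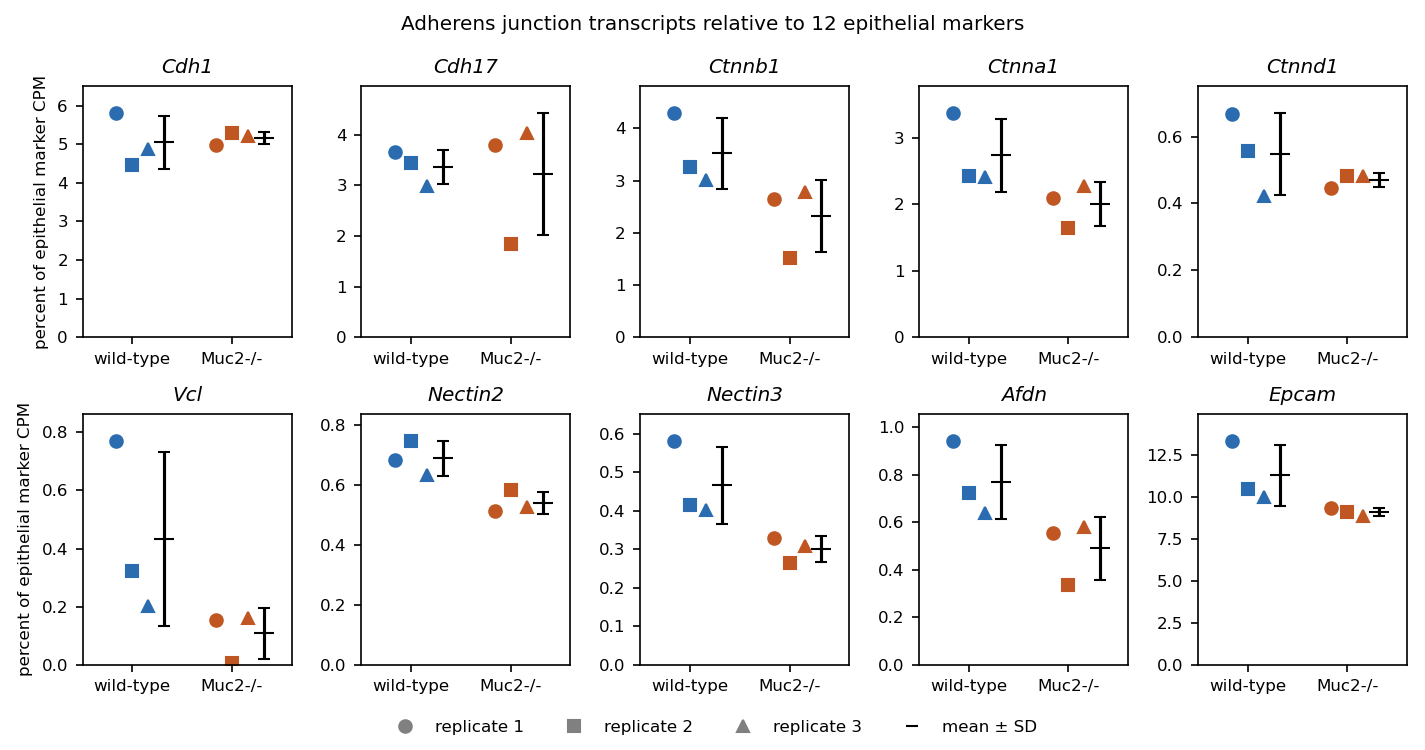
Each gene's CPM as a percentage of the summed CPM of 12 epithelial markers in the same library (y axis, from 0), drawn as in the plot of FPKM by library. Cdh1 overlaps between the groups, while all 3 Muc2-/- libraries lie below the wild-type libraries for Ctnnb1 (1.52% to 2.79% against 3.01% to 4.30%), as for 59.6% of all tested genes.

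Other adherens junction genes were read from 8 lists with 97 names, of which 96 were in the table and 91 were tested. edgeR called 0 of the 91 in either direction (10 higher and 19 lower at an unadjusted p under 0.05, against 8.23% and 12.7% of all tested genes). DESeq2 called 4 higher and 14 lower, against 4.09% and 7.41%, so the count of higher calls is near the background. The median log2 fold change was 0.11, against -0.01 over all tested genes, of which 49.1% were positive. These shares of all tested genes are also the background for the counts of each list below. Pairs of CPM values in the next paragraphs are the means of wild-type and Muc2-/-, in that order (n = 3 each).

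Cadherins other than Cdh1 and Cdh17 mostly had negative log2 fold changes. Of 10 tested, 7 were negative (median -1.07) and DESeq2 called 4 lower, whereas edgeR called 0 in either direction. The smooth muscle sum and the neuron and glia sum were also lower in Muc2-/-, and their part in these values was not tested. Cdhr5 and Cdhr2, protocadherins that link brush border microvilli, were the most abundant per length, and their log2 fold changes were 0.34 (SE 0.28) and 0.20 (SE 0.27). Among 7 other catenins tested (median -0.11), Jup, which encodes plakoglobin, went from 306.4 to 402.9 CPM in the mean with overlap (0.39, SE 0.32), and Pkp4 had 0.39 (SE 0.22). DESeq2 called 2 of these lower and 0 higher.

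Of 6 other nectins and nectin-like receptors, 4 had a negative log2 fold change (median -0.74) and DESeq2 called 3 lower. Pvr, the poliovirus receptor and a partner of Nectin3, averaged 24.14 CPM in wild-type and 24.78 CPM in the mutant (0.04, SE 0.26). Cadm4, a nectin-like receptor, averaged 9.15 CPM and 2.58 CPM (-1.82, SE 0.42, edgeR adjusted p = 0.103, DESeq2 adjusted p = 0.00153). All 4 tested Epcam partners had positive values (median 0.70), among them Cldn7 and Spint2, an inhibitor of membrane proteases (0.76, SE 0.41). DESeq2 called 1 of these 4 higher, St14, the gene of the protease matriptase, named after its value was seen.

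The 24 actin linkers and scaffolds had a median of 0.09, with 13 positive and 11 negative, and DESeq2 called 3 lower and 0 higher. Vasp had 0.40 (SE 0.21) and the alpha-actinin gene Actn4 0.61 (SE 0.40). Actn1, the alpha-actinin gene shared with mesenchymal cells and picked with its value known, went from a mean of 239.0 CPM to 108.7 CPM in the mutant (-1.14, SE 0.38, edgeR adjusted p = 0.152, DESeq2 adjusted p = 0.0414). Of 15 kinases, phosphatases and proteases (median 0.11), the casein kinase gene Csnk1a1 had 0.42 (SE 0.22). Adam10, the protease that sheds E-cadherin, was the one gene of that list called in DESeq2, and it too was named after its value was seen. It averaged 95.38 CPM and 152.3 CPM (0.67, SE 0.16, edgeR adjusted p = 0.103, DESeq2 adjusted p = 0.00106).

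Among 12 transcription factors that repress or maintain Cdh1 (median -0.19), Elf3 and Hnf4a were the most abundant per length. Both belong to the epithelial marker list as well, as does Cdx2. Elf3 had a log2 fold change of 1.11 (SE 0.31, edgeR adjusted p = 0.117, DESeq2 adjusted p = 0.00931) and Hnf4a of -0.14 (SE 0.33). Zeb1, Zeb2, Twist1, Snai1 and Snai2, named beyond the rule for their link to the E-box, were low. Tcf3 of the same list, also named beyond the rule, was more abundant, with 48.22 CPM and 39.76 CPM (-0.28, SE 0.17). Zeb1 went from a mean of 25.61 CPM to 6.75 CPM in the mutant (-1.92, SE 0.52, edgeR adjusted p = 0.11, DESeq2 adjusted p = 0.00545), and Twist1 averaged 5.75 CPM and 1.01 CPM (-2.50, SE 0.56, edgeR adjusted p = 0.103, DESeq2 adjusted p = 0.00102). Zeb2 averaged 12.85 CPM and 8.72 CPM, Snai2 averaged 1.46 CPM and 2.71 CPM, and Snai1 averaged 0.883 CPM and 0.996 CPM, none past 0.05 in either tool. Snai2 was higher in Muc2-/- without overlap (2.143 to 3.832 CPM against 0.7153 to 2.105 CPM), as were 13.3% of all tested genes. Its values rest on 15 to 58 counts a library. Before scaling, wild-type 1 had 38 counts, above Muc2-/- 1 (36) and Muc2-/- 3 (35). The smooth muscle sum, lower in Muc2-/- as given above, moved with Zeb1 and Twist1, and its part in their values was not tested.

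Small GTPases and their regulators, which steer actin at the junction, were positive for 11 of 13 (median 0.26), and DESeq2 called 1 higher and 0 lower. Cdc42 averaged 386.9 CPM and 528.4 CPM (0.45, SE 0.20) and Rac1 averaged 326.5 CPM and 469.9 CPM (0.53, SE 0.23), both without overlap. The called gene was Rap1b, named after its value was seen, whose product acts on cadherins and afadin. It averaged 122.8 CPM and 206.6 CPM (0.75, SE 0.22, edgeR adjusted p = 0.122, DESeq2 adjusted p = 0.0251).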

How the data were processed

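The authors deposited whole-number counts per gene, not normalized, and FPKM. The submitters' processing notes list, without roles, featureCounts 1.5.0-p3, HISAT2 2.0.5, StringTie 1.3.3b and DESeq2 1.20.0, with mm10 as build. The denominators of the deposited FPKM were found proportional to DESeq2's median-of-ratios factors. Of the 10 members 10 had the width of GENCODE M21 (GRCm38) and 1 the same start and end, so gene coordinates are those of the count table, with no build named. Loci with no name took 0.144% to 0.192% of counts and kept their identifiers.

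Counts were tested in edgeR 4.0.16 (R 4.3.3): TMM factors, default filter (minimum count 10, total 15), quasi-likelihood fit on genotype alone, Benjamini-Hochberg over all tested genes at 0.05. The procedure was also run on counts simulated independently for each gene, without the differences in tissue makeup or gene length seen between these libraries. The SE is the log2 fold change divided by the root of F. DESeq2 1.42.0 and limma 3.58.1 served as alternatives, beside other factors, filters, the block and left-out libraries. Log2 CPM used a prior count of 2. Ratios were tested on the log2 scale by exact permutation (20 arrangements). The members and lists were chosen with earlier results of these data known. Named were all members, called genes of each list up to 3 each way or else its 2 highest by mean FPKM, and the 5 nearest profiles, with exceptions marked. A gene that this rule names is not reported here. Fert2, in a list, did not match a row name.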

Additional observations from a re-analysis of the deposited data

How the results depend on the processing

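All 10 genes kept the direction of their log2 fold change in all 17 alternative fits, and edgeR and limma called none of them in any. DESeq2 called 1 higher, Cdh1 (log2 fold change 0.97). With libraries left out one at a time, Cdh1 ran from 0.77 to 1.15 and Vcl from -1.47 to -0.49.

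Over all genes, the 17 higher and 3 lower became 7 and 1 with library totals only (which moved the median of all genes to -0.20 and that of the 10 to 0.32), 22 and 5 with RLE factors, 384 and 815 with no filter, 659 and 1193 in DESeq2, 3 and 0 with limma on log2(FPKM + 1), 4 and 0 on log2(FPKM + 0.1), and 37 and 9 on log2(FPKM + 1) with at least 1 FPKM in 3 libraries. Leaving out single libraries gave 0 to 272 higher and 0 to 954 lower, the highest without wild-type 3. Omitting wild-type 1 and Muc2-/- 2 together, chosen after seeing the data, gave 1 and 0. With the replicate block the counts were 225 and 448. Same-numbered libraries had deviations correlated at 0.0937, 0.281 and 0.0606, against -0.247 to 0.0749 for libraries with different numbers. The labels name no batch, and these correlations cannot tell whether same-numbered libraries shared one. Of the genes of the 8 other lists, 0 were called higher and 0 lower in the main fit. DESeq2 called 4 higher and 14 lower, against 4.09% and 7.41% of all tested genes. With no filter 0 and 11 were called, against 384 and 815 of 26830 genes. The replicate block gave 0 and 5, against 225 and 448 of 16107 genes. Leaving out wild-type 3 gave 0 and 10, against 1.62% and 5.68% of all tested genes. Leaving out any other single library gave 0 and 0. The causes were not tested.

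Leaving out single libraries, the log2 difference relative to the epithelial sum ran from -0.044 (without wild-type 2) to 0.15 for Cdh1, and from -0.35 to 0.22 (without Muc2-/- 2) for Cdh17, which was 0.014 with the geometric mean of the markers. Vcl relative to the smooth muscle sum ran from -1.01 to 1.303 (without Muc2-/- 2) and was 0.16 without wild-type 3. Vcl in Muc2-/- 2, at 50 counts, was the lowest count of any member in any library.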
